A study of Mus musculus with 12 samples.

Results

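The 9 genes described here code for cytokines of the interleukin-6 family, for interleukin-10, and for receptor subunits that bind them. They were taken by name, and all 9 were found among the 19369 genes tabulated for Total libraries and the 18574 for CD45 libraries. The ligands are Il6 (interleukin-6), Lif (leukaemia inhibitory factor), Osm (oncostatin M), Il11 (interleukin-11) and Il10 (interleukin-10). The receptor subunits are Il6st (gp130), Il6ra, Osmr and Il10ra. The cells came from 6 mammary tumours grown orthotopically in female BALB/c mice aged 9 to 11 weeks, each from the 4T1 mouse mammary carcinoma line. Clones E, EM1, EM2, EM3 and M were each grown from a single cell of that line, and the sixth tumour came from parental 4T1 cells. The clones together span epithelial, intermediate and mesenchymal states, but the labels do not assign a state to each clone, and no tumour received a further treatment. Every tumour gave a Total library and a CD45 library, the latter of leukocytes held on magnetic beads against CD45.

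Interleukin-6 and interleukin-11 first meet a receptor subunit of their own and then recruit gp130, while oncostatin M uses gp130 together with Osmr. Gp130 passes the signal through JAK kinases to STAT3. Membrane Il6ra is found on few cell types, mainly hepatocytes and some leukocytes, while gp130 is widespread, and a soluble form of the receptor lets interleukin-6 act on cells that lack Il6ra. Fibroblasts, macrophages and carcinoma cells are known sources of interleukin-6 and leukaemia inhibitory factor in tumours, and myeloid cells are the usual source of oncostatin M. Interleukin-10 uses separate receptors, Il10ra and Il10rb, acts through STAT3 as well, and is best known as a product of macrophages and regulatory T cells that restrains inflammation.

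The sequences just upstream of Il6, Lif and Il11 are shown because these 3 ligands had their highest median in fibroblasts among the classes of the Total libraries, and in single fibroblasts Il6 and Lif were found together. Each run is the 250 bases before the RefSeq transcript start in GRCm38.p6, written 5′ to 3′ on the strand of the gene: Il6 at chr5:30012864-30013113 (plus strand), Lif at chr11:4257318-4257567 (plus strand) and Il11 at chr7:4782858-4783107 (minus strand). Capitals mark matches to TGANTCA, the letters bound by AP-1, and to a form of the site of NF-kB, GGG and TCC with any 4 bases between them, on either strand.
Il6: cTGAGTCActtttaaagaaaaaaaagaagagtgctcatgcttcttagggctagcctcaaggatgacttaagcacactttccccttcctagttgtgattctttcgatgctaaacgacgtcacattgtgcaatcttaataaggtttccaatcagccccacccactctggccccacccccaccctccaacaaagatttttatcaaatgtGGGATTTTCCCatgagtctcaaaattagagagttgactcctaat
Lif: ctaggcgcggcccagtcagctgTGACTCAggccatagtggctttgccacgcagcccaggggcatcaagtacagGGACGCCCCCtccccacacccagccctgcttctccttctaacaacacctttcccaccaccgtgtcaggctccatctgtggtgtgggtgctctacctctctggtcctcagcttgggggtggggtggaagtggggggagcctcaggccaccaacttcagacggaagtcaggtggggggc
Il11: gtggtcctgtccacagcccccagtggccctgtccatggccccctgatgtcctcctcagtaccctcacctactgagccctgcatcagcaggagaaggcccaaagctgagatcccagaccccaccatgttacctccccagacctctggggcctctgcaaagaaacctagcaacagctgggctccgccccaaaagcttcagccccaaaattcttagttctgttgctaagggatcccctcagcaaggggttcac
The Il6 run holds an AP-1 match from 249 to 243 bases before the start, and an NF-kB match from 44 to 35 bases before it that overlaps a match on the opposite strand. The Lif run holds an AP-1 match 228 to 222 bases before the start and an NF-kB match on the opposite strand from 177 to 168. The Il11 run holds neither set of letters in this window. Of 32851 promoter windows of that length, 6.75% held the AP-1 letters and 16.5% the NF-kB letters. TTCNNNGAA, the letters bound by STAT factors, stood in 7.02% of windows and TATAAA in 12.4%, and neither stood in these 3 runs. RefSeq windows were matched for 6 of the 9 members.

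Levels are given as counts of unique molecular identifiers (UMIs, each marking 1 captured RNA molecule), summed over all cells of an annotated class in a tumour and written per 1000000 UMIs of that class (CPM). The classes are those the authors deposited, and values are listed in the order E, EM1, EM2, EM3, M and parental. The 12 libraries held 28083101 to 122055131 UMIs in 6709 to 13467 cells, with a median UMI count per cell from 2351 (E) to 10042 (parental) in the Total libraries and from 1557 to 3453 in the CD45 libraries. Defining markers stood in their own classes: summed keratin and adhesion markers reached 1861 to 6929 CPM in annotated tumour cells, 6 collagen and fibroblast genes 71168 to 158155 CPM in fibroblasts, and 6 macrophage genes 8061 to 15211 CPM in macrophages. In tumour cells the epithelial genes differed strongly between tumours, since Epcam stood at 1579 CPM in E and 4.73 CPM in EM3. Libraries also shared parts of their cell barcodes. The 4 libraries of E and EM3 had 15.1 to 16.7% of the first 16 bases of their barcodes in common, the 4 of EM1 and EM2 12.2 to 14.0%, the pair from M 19.1% and the pair from the parental line 16.4%, against 0.686 to 1.91% in the other 52 pairs. Whole barcodes were shared by 12 pairs, 84 to 189 each. E and M therefore lie in different barcode sets, and a difference between them cannot be told apart from a difference between those sets, while E and EM3 share a set. Each clone was represented by a single tumour, so levels of different tumours are set side by side without a test. Intervals on single values are exact 95% Poisson intervals and cover counting error only.

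Il6, the family's founding cytokine, was highest in fibroblasts in every tumour among the classes of the Total libraries. Its level there was 1144, 2249.9, 1342, 1821, 1371 and 1188 CPM, against 28.2, 92.2, 32.7, 41.1, 43.9 and 44.2 CPM in tumour cells. The 2 ranges lie far apart, and no other class of the Total libraries came close to fibroblasts in all 6 tumours. Endothelial cells followed, at 309, 413, 564, 122, 251 and 936 CPM, below fibroblasts in 6 of 6 tumours, and their range overlapped that of the next class. Further down, the medians over tumours were 124 CPM in T and NK cells, 77.8 in a class named Unknown, over the 3 tumours with at least 20 of its cells, 49.0 in macrophages, 48.4 in dendritic cells, 42.5 in tumour cells, 31.7 in granulocytes and 23.3 in the class named B, and the ranges of all neighbouring classes in this order overlapped. Because fibroblasts were few (52 to 256 cells per tumour), they held 16.7 to 50.1% of all Il6 UMIs of a Total library, tumour cells 3.38 to 65.2% and macrophages 3.79 to 59.0%.

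**Figure D1:**
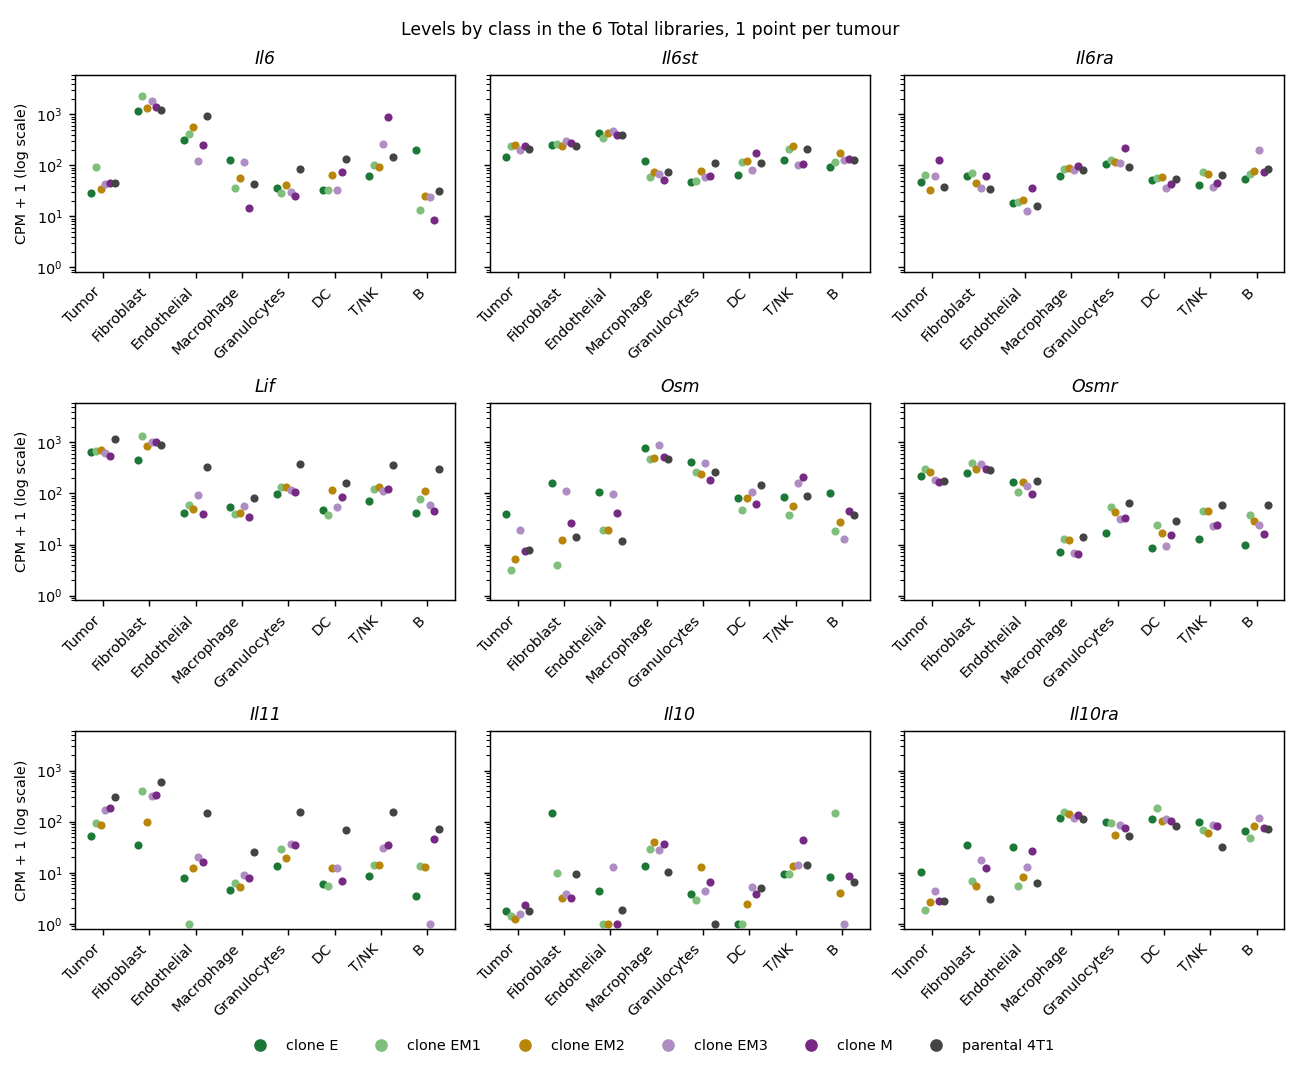
Level of each of the 9 genes (CPM + 1, log scale) in 8 classes of the Total libraries, with 1 point per tumour, coloured by tumour. Il6 stands highest in fibroblasts, Osm in macrophages and granulocytes, and Il10ra is near 1 to 10 CPM in tumour cells but above 50 CPM in macrophages.

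Il6 UMIs were spread over many fibroblasts but over few macrophages. In fibroblasts, cells with at least 5 Il6 UMIs (24 of 52 cells in EM1 and 117 of 256 in the parental tumour, for example) held 91.0 to 97.6% of the UMIs, so that without them the class stood at 149, 177, 69.1, 114, 72.1 and 80.2 CPM. In macrophages 105 of 3837 cells of E held 80.2% of the Il6 UMIs, and 15 of 2880 cells of M held 45.2%. The Total macrophage levels were 124, 34.5, 55.5, 116, 13.4 and 42.5 CPM, and the CD45 libraries of the same tumours gave 91.3, 27.7, 50.6, 87.6, 12.1 and 50.5 CPM. In both sets of libraries E and EM3, which share a barcode set, were the 2 highest and M was the lowest. After thinning every cell to 1000 UMIs, 30.1 to 53.1% of fibroblasts, 2.45 to 5.58% of tumour cells and 0.897 to 4.47% of granulocytes had an Il6 UMI; unthinned, the shares were 49.6 to 71.9%, 8.18 to 18.5% and 2.55 to 5.29%. Median UMIs per cell were 5349 to 12308 in fibroblasts, 6524 to 15260 in tumour cells and 779 to 1459 in granulocytes, and thinning left out 3 to 12, 4 to 29 and 158 to 987 shallower cells per tumour.

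**Figure D2:**
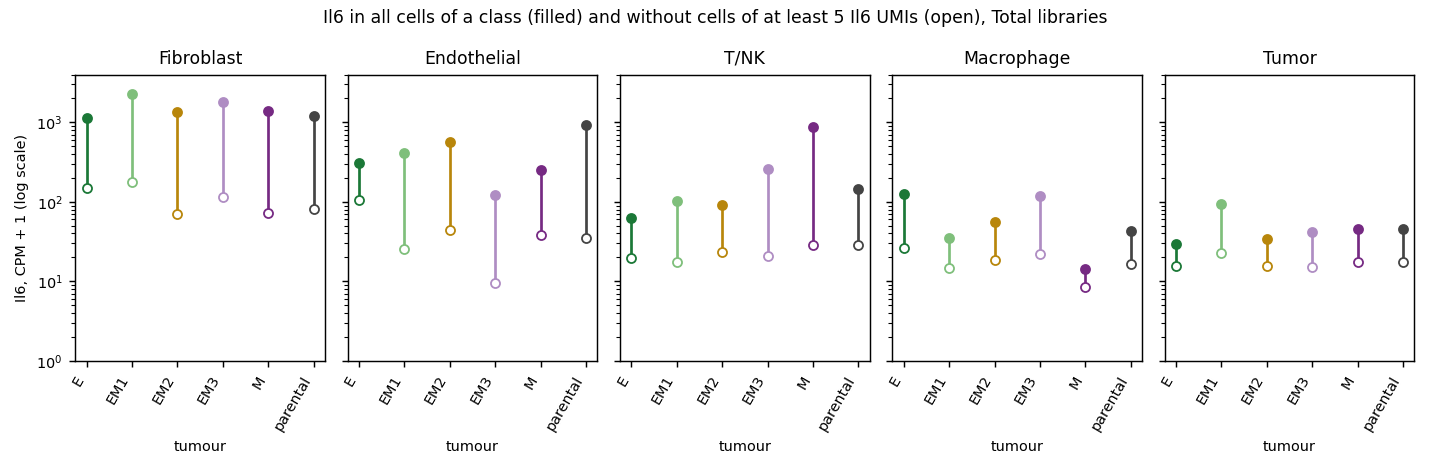
Il6 in 5 classes of the Total libraries (CPM + 1, log scale) over all cells (filled circles) and after leaving out cells with at least 5 Il6 UMIs (open circles), 1 line per tumour. T and NK cells of M fall from 876 to 27.3 CPM, and fibroblasts of all 6 tumours fall from above 1000 CPM to between 69.1 and 177 CPM.

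The T and NK class of the Total libraries held Il6 that did not follow its T cell genes. The class stood at 61.6, 102, 90.7, 258, 876 and 145 CPM, with M far above the rest. In M, 50 of 1089 cells held 1867 of 1924 Il6 UMIs, and without them the class stood at 27.3 CPM. Over the 6 tumours 82 such cells were found, and without them the class lay between 16.6 and 27.6 CPM. In these 82 cells the 5 T cell markers summed to 450.0 CPM, against 4617 CPM in the 8750 other cells of the class, and Cd3e, part of the T cell receptor complex, had a UMI in 32.9% against 68.3%. They carried other genes instead, which were looked up after the Il6 levels were seen: Hdc, the enzyme that makes histamine, in 96.3% against 4.57%, Gata2, a transcription factor, in 72.0% against 0.309%, Il13 in 68.3% against 1.39%, Cd200r3 in 61.0% against 0.320%, and both Mcpt8, a protease, and Il4 in 52.4% against 0.297% and 0.469%. The other genes looked up did not all go one way. Cpa3, a mast cell protease, had a UMI in 14.6% of them against 0.114% and Fcer1a, a subunit of the IgE receptor, in 15.9% against 0.297%, while Kit, the receptor for stem cell factor, had one in 1.22% against 10.5%. The 4 mast cell markers summed to 186 against 109 CPM, the 6 granulocyte markers to 5317 against 1707 CPM and the 5 tumour cell markers to 1003 against 419 CPM. These shares were not adjusted for depth. No name is given to these cells, since no marker list for them had been set.

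Small groups of cells also set the level of Il6 or Il10 in other classes. In the CD45 class named T/Myeloid Hybrid2, 6 of 20 cells of M held 166 of 167 Il6 UMIs, and over the tumours the 15 cells with at least 5 Il6 UMIs had 12715 CPM of mast cell markers against 2293 CPM in the other 153. That class stood at 3799 CPM of Il6 in M and 1695 CPM in the parental tumour (18 cells), above the fibroblasts of those tumours. In E, EM1, EM2 and EM3 it stood at 168 to 1336 CPM, below the fibroblasts there. In the Total B class of E, 2 cells held 140 of 159 Il6 UMIs, so that 195 CPM became 23.8 CPM without them. In endothelial cells of the parental tumour, 14 of 97 cells held 1039 of 1065 Il6 UMIs. Over all tumours 49 endothelial cells had at least 5 Il6 UMIs, with 5904 CPM of the 6 fibroblast markers against 230 CPM in the other 393. Their 5 endothelial markers summed to 4546 against 5624 CPM. The gene with the largest ratio in them, taken on CPM + 20, was Rgs5, which is in neither list, at 1118 against 5.58 CPM. The part of other cell types in the endothelial Il6 level was not tested.

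Lif, which signals through gp130 and its own receptor Lifr, was the ligand shared by tumour cells and fibroblasts. Tumour cells stood at 662, 692, 726, 619.7, 551 and 1192 CPM, and fibroblasts at 445, 1358, 852, 1026, 1043 and 884 CPM. The ranges overlapped, with fibroblasts the higher class in 4 of 6 tumours and tumour cells in E and the parental tumour. The parental tumour stood apart among tumour cells, at 1192 CPM (95% interval 1185 to 1199) against 726 CPM (718 to 733) in the next, EM2. Tumour cells held 59.8 to 94.3% of all Lif UMIs of a Total library. In fibroblasts the 5 tumour cell markers summed to 126 (M) to 907 (parental) CPM. Over the 6 tumours Krt8, 1 of those markers, stood at 415 CPM in fibroblasts with at least 5 Lif UMIs, against 156 CPM in other fibroblasts. The part of tumour cell RNA in the fibroblast Lif was not tested. Among leukocytes of the CD45 libraries Lif was low, with medians of 15.3 CPM in granulocytes and 18.5 CPM in macrophages. The subtype named Trdc+ DN T, after a gamma delta T cell receptor gene, was an exception at 948, 473, 67.3, 1415, 677 and 105 CPM, but it held 6 to 25 cells and 1 to 30 Lif UMIs per tumour.

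Il11, a cytokine known from fibrosis and platelet formation, followed the same 2 classes with a wider range between tumours. Tumour cells stood at 52.0, 93.0, 83.9, 167, 182 and 304 CPM, so that E was lowest and the parental tumour highest. Fibroblasts stood at 34.4, 402, 96.3, 314, 337 and 593 CPM, again with E lowest and the parental tumour highest. The fibroblast level of E rested on 24 UMIs (95% interval 22.0 to 51.1 CPM) and that of M on 1044 UMIs (317 to 358 CPM). Immune cells of the CD45 libraries had almost none: macrophages lay between 0.162 and 0.676 CPM. The share of tumour cells with at least 5 Il11 UMIs went from 5 of 782 cells in E to 1774 of 5969 in the parental tumour, where the median depth per cell was also the highest. After thinning to 1000 UMIs, 5.10 to 20.4% of tumour cells had an Il11 UMI, against 0.276 to 3.33% of macrophages of the same libraries. Unthinned, the shares were 22.1 to 71.2% and 1.85 to 16.6%, at median depths of 6524 to 15260 and 5055 to 9561 UMIs per cell.

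**Figure D3:**
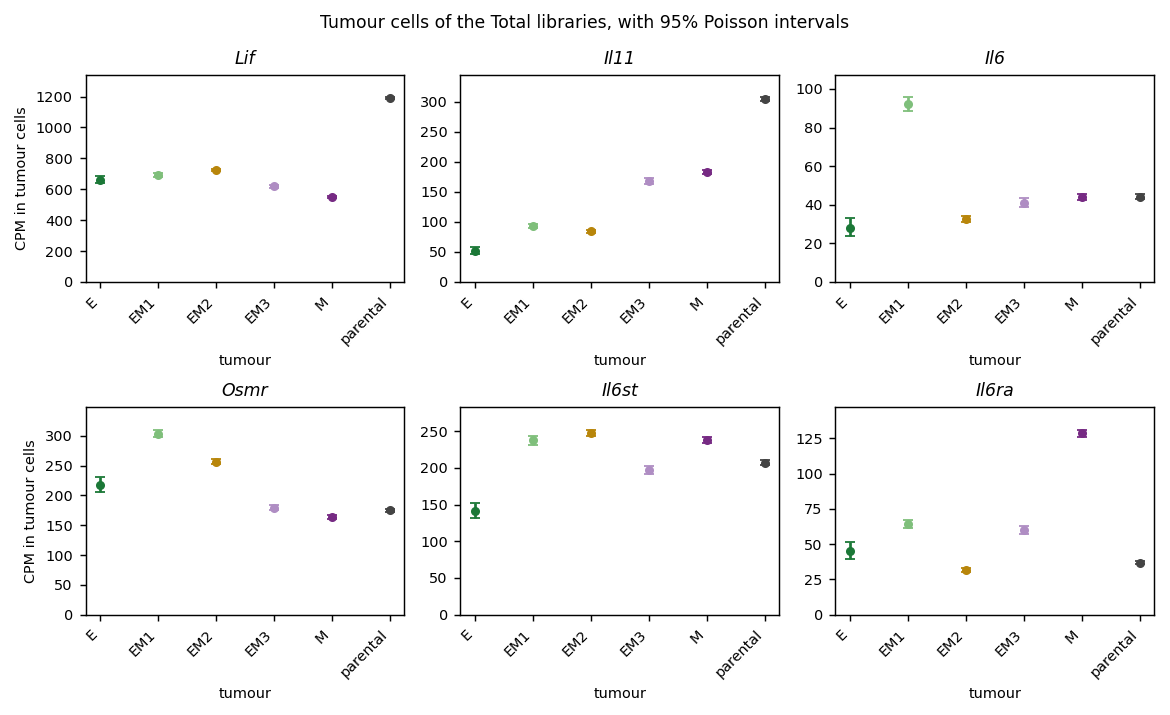
Lif, Il11, Il6, Osmr, Il6st and Il6ra in annotated tumour cells of the 6 Total libraries (CPM), with exact 95% Poisson intervals that cover counting error only. Lif and Il11 are highest in the parental tumour, Il6 in EM1 and Il6ra in M.

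Osm, which signals through Osmr and gp130, was a myeloid gene in every tumour. Macrophages of the Total libraries stood at 761, 471, 485, 877, 528 and 474 CPM and those of the CD45 libraries at 676, 474, 515, 845, 513 and 553 CPM. In both, E and EM3, of 1 barcode set, were the 2 highest. Granulocytes of the CD45 libraries stood at 416, 300.3, 348, 448, 194 and 453 CPM and dendritic cells at 253, 224, 189, 375, 105 and 141 CPM. Dendritic cells were below macrophages in 6 of 6 tumours. Macrophages held 86.4 to 93.8% of all Osm UMIs of a Total library. Tumour cells stood at 38.3, 2.19, 4.30, 18.0, 6.62 and 6.85 CPM and fibroblasts at 159, 2.93, 11.5, 112, 25.5 and 13.1 CPM. In both classes E and EM3 were again the highest. The 6 macrophage markers, none of them at 0 in any tumour, summed to 42.8 (EM1) to 278 (E) CPM in tumour cells and to 212 (parental) to 1664 (E) CPM in fibroblasts. Among them C1qa, a complement gene, stood at 107 and 86.7 CPM in tumour cells of E and EM3 and at 16.6 to 41.6 CPM in the other 4 tumours. The part of macrophage RNA in the Osm of these classes was not tested.

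Il10 was led by macrophages among the broad classes. Macrophages had its highest median in the Total libraries (28.1 CPM) and among the broad classes of the CD45 libraries (28.4 CPM), and among CD45 subtypes found in all 6 tumours the highest medians were those of Foxp3+ (54.9 CPM) and Cd44+ (36.4 CPM) CD4 T cells, with other subtypes above them in single tumours. Macrophages stood at 12.3, 28.7, 39.5, 27.4, 36.0 and 9.29 CPM in the Total libraries and at 9.94, 38.4, 51.3, 13.0, 33.6 and 23.2 CPM in the CD45 libraries. E was among the 2 lowest and EM2 the highest in both. Foxp3+ CD4 T cells, the regulatory T cells, stood at 56.3, 80.7, 40.5, 72.4, 7.53 and 53.6 CPM, with only 2 to 48 UMIs per tumour. Cd44+ CD4 T cells, a class of activated or memory cells, stood at 109, 105, 34.7, 11.8, 23.1 and 38.2 CPM on 5 to 62 UMIs, and 4 of 344 cells held 52 of the 62 UMIs in E. The 2 subtypes overlapped, with Foxp3+ cells higher in 3 of 6 tumours. Plasma cells, which secrete antibody, reached 112 CPM in both E and EM1, the only tumours with at least 20 of them. Gzmb+ CD8 T cells stood at 63.2 CPM in EM2 on 20 UMIs and at 0.790 to 9.48 CPM in the other 4 tumours with at least 20 of them.

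**Figure D4:**
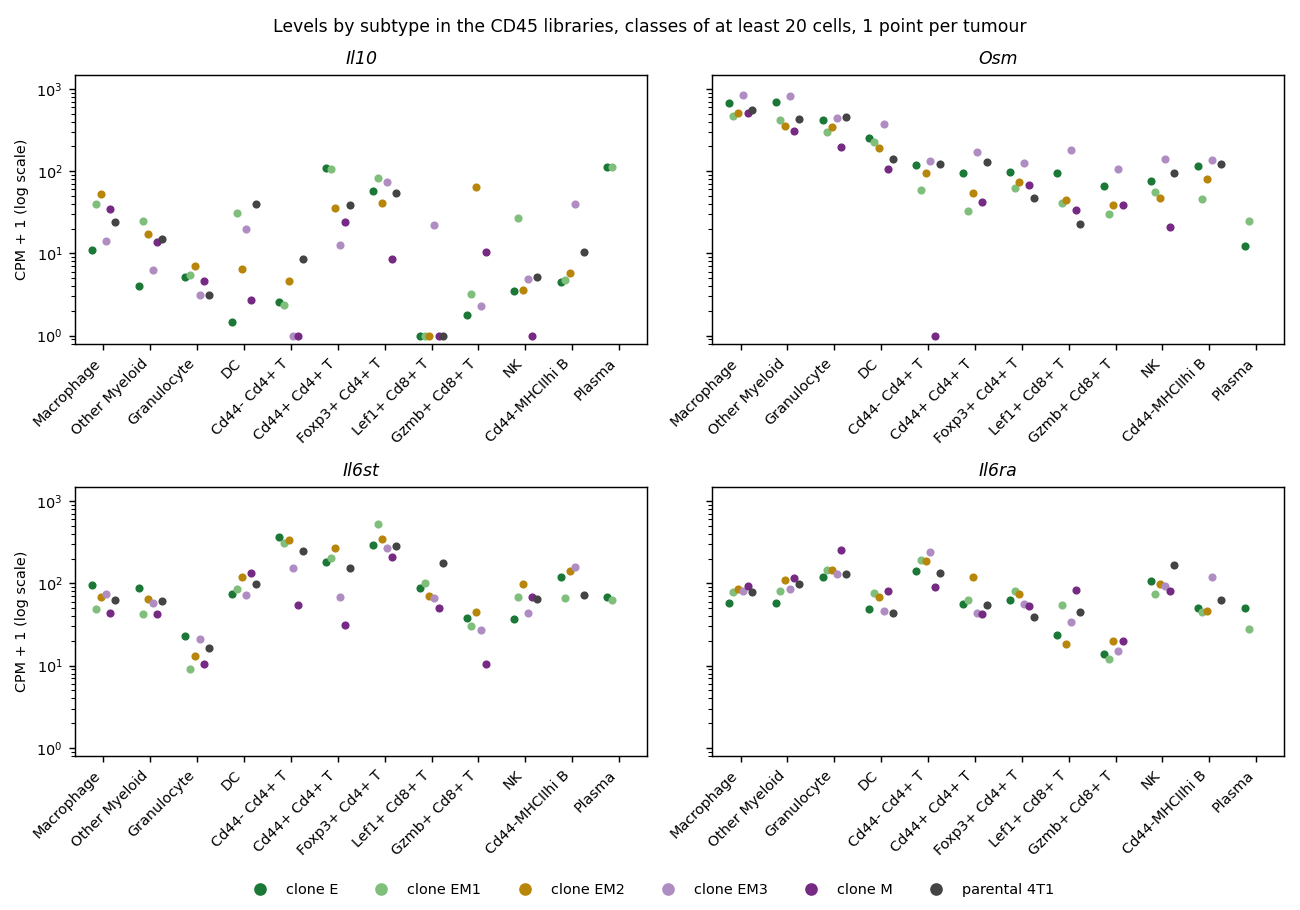
Il10, Osm, Il6st and Il6ra (CPM + 1, log scale) in selected subtypes of the CD45 libraries with at least 20 cells, 1 point per tumour. Osm is highest in macrophages, other myeloid cells and granulocytes, and of the subtypes drawn Il6st has its highest medians in Foxp3+ and Cd44- CD4 T cells and its lowest in granulocytes.

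A pair of Il10 values of the Total libraries rested on a handful of cells. Fibroblasts of E stood at 146 CPM against 2.22 to 8.80 CPM in the other 5 tumours, but 2 of 135 cells held 92 of the 102 UMIs and the class stood at 14.7 CPM without them. The B class of EM1 stood at 149 CPM, with 5 of 282 cells holding 63 of 84 UMIs, and at 39.5 CPM without them. Those 5 cells had 30667 CPM of the plasma cell markers Jchain, Mzb1 and Sdc1, against 6463 CPM in the other B class cells of all tumours.

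Il6st, the shared signalling subunit gp130, was found in every class. Endothelial cells stood at 428, 335, 432, 477, 399 and 399 CPM, above fibroblasts in 6 of 6 tumours with ranges that did not overlap (fibroblasts 234 to 294 CPM). Tumour cells stood at 142, 237, 248, 197, 238 and 207 CPM and overlapped with fibroblasts. In the CD45 libraries the subunit was high in CD4 T cells and low in granulocytes. Foxp3+ CD4 T cells stood at 293, 526, 349.7, 268, 207 and 283 CPM and Cd44- CD4 T cells, a subtype without that activation marker, at 363, 308, 339, 153, 54.0 and 244 CPM. Granulocytes stood at 8.14 to 22.0 CPM. A small B cell subtype, Cd25+Cd69+ B, stood at 194 to 388 CPM in the 3 tumours with at least 20 of its cells, on 4 to 23 UMIs.

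Il6ra, the subunit that binds interleukin-6, was led by granulocytes. They stood at 107, 129, 117, 108, 214 and 92.2 CPM in the Total libraries and at 119.98, 144, 146, 129, 250.4 and 129.8 CPM in the CD45 libraries, with M highest in both. Tumour cells of M were also the highest of their class: the 6 values were 45.1, 64.4, 31.8, 60.2, 129 and 36.9 CPM. Macrophages lay between 59.9 and 96.4 CPM in the Total libraries. Among T cells the Cd44- CD4 subtype led at 139, 192, 188, 241, 90.0 and 132 CPM, above granulocytes in 5 of 6 tumours with overlapping ranges. Endothelial cells had the lowest median of the Total classes, 17.7 CPM, and the broad NK class that of the broad CD45 classes, 9.80 CPM (0 to 13.1 CPM). The 2 NK labels of the CD45 libraries gave different levels: the subtype named NK stood at 73.9 to 165 CPM (median 94.1 CPM), above the broad NK class in 6 of 6 tumours.

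Osmr, the oncostatin M subunit, marked the non-immune classes. Fibroblasts stood at 253, 396, 295, 382, 295 and 285 CPM, tumour cells at 218, 304, 257, 179.6, 164 and 175 CPM, and endothelial cells at 169.9, 105, 169.6, 138, 98.4 and 174 CPM. Fibroblasts were above tumour cells and tumour cells above endothelial cells in 6 of 6 tumours, although the ranges of neighbours overlapped. Macrophages of the CD45 libraries lay between 0.114 and 0.541 CPM. Il10ra, the ligand-binding subunit for interleukin-10, was its opposite. Macrophages stood at 118, 152, 141, 119, 134 and 114 CPM in the Total libraries and at 110.4, 159, 162, 128, 142 and 124 CPM in the CD45 libraries. Tumour cells stood at 9.33, 0.890, 1.68, 3.43, 1.81 and 1.81 CPM.

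Fibroblasts differed from tumour cells in 8 of the 9 members, all higher in fibroblasts. Class against class, each tumour served as a block in edgeR's quasi-likelihood test, with p-values adjusted by the Benjamini-Hochberg method over all genes tested and called under 0.05. The classes had been drawn by the authors from the same expression data, so these tests describe the annotated classes. Of all 11526 genes tested, 56.4% differed between fibroblasts and tumour cells, 26.6% as higher and 29.8% as lower in fibroblasts. Il6 showed the largest difference, 5.60 ± 0.20 (SE) on the log2 scale (adjusted p = 7.35e-08, higher in 6 of 6 tumours). Il11 was higher by 1.32 ± 0.29 (adjusted p = 0.00379, 5 of 6) and Osmr by 1.10 ± 0.15 (adjusted p = 0.000167, 6 of 6). Osm (2.26), Il10ra (2.32) and Il10 (4.02, or 3.27 without E) were called from low levels, with medians of 19.3, 8.74 and 5.63 CPM in fibroblasts and 6.73, 1.81 and 0.655 CPM in tumour cells. The 6 macrophage markers moved with them, at medians of 589 CPM in fibroblasts and 92.7 CPM in tumour cells, as did the 5 T cell markers (218 and 15.1 CPM), and their part was not tested. Il10 passed the low-count filter through fibroblasts, since it stood at 0.258 to 1.28 CPM in tumour cells, so its call carries little weight. Its value without E still held the parental fibroblasts, where 1 cell carried 25 of the 33 Il10 UMIs. Il6st and Lif were called at 0.83 each, and Il6ra at 0.35 was not (adjusted p = 0.205). The Lif call was lost on leaving out EM1, EM2, EM3 or M (adjusted p = 0.0635 to 0.0788) and without a low-count filter (0.135).

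The scaling used here, edgeR's TMM, shifted whole classes against each other, and scaling by library size alone was added after the data were seen. For fibroblasts against tumour cells the shift was -0.51 on the log2 scale, so that 47.2% of called genes were higher in fibroblasts with TMM and 23.9% without it. By library size Il6st stood at 0.31 (adjusted p = 0.0697) and Lif at 0.32 (adjusted p = 0.240), so both calls were lost, and Il6ra turned to -0.16. Of the other receptor subunits fixed for the pathway, all 4 tested of 6 were higher in fibroblasts. They included Il11ra1, the receptor for interleukin-11 (4.31 ± 0.50, adjusted p = 6.86e-05, 17.6 against 1.33 CPM), and Lifr (2.47 ± 0.29, adjusted p = 7.06e-05, 49.3 against 12.7 CPM). Of 4 other ligands tested, 1 was higher, and Clcf1 and Ctf1 were lower in fibroblasts. Clcf1, a cytokine of the same family, stood at a median of 703 CPM in tumour cells and 93.4 CPM in fibroblasts (-2.04 ± 0.17, adjusted p = 8.76e-06). Of 8 signal transducers 2 were higher, Jak1 and Stat5a, and of 10 feedback inhibitors and targets 4 were higher, with Socs3, the main brake on gp130 (1.08), among them, and 1 was lower. Over all genes the median difference was -0.11.

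Macrophages differed from tumour cells in 8 of 9 members, 4 higher and 4 lower, against 75.7% of 13993 genes, 37.8% in each direction. Osm (6.48 ± 0.40, adjusted p = 2.76e-07), Il10ra (6.13), Il10 (5.53) and Il6ra (0.91) were higher in macrophages. Osmr (-4.30 ± 0.17, adjusted p = 1.55e-08), Il11 (-3.84), Lif (-3.53) and Il6st (-1.23) were lower, in 6 of 6 tumours each. Il6 was not called (0.55 ± 0.52, adjusted p = 0.355), with macrophages higher in 3 of 6 tumours. All 8 calls held with scaling by library size, where 37.3% of called genes were higher in macrophages against 49.98% with TMM and the shift was -0.35. All 5 other receptor subunits tested were higher in macrophages, among them Il10rb, the second interleukin-10 subunit (3.13 ± 0.16, adjusted p = 6.25e-08). Of 7 other ligands 2 were higher and 4 lower. Ebi3, a subunit of interleukin-27 and interleukin-35, was higher by 5.89, and Ctf1, cardiotrophin 1, stood at -2.89. Of 8 transducers 5 were higher and 2 lower, among them Stat3 at 0.35, which stood at -0.0014 by library size. Of 10 feedback genes and targets 4 were higher and 3 lower. Over all genes the median difference was -0.02.

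Granulocytes and macrophages gave different member lists in the 2 sets of libraries. The comparisons with macrophages in the CD45 libraries all use the same macrophage cells. In the Total libraries 7 of 9 members were called, 4 higher and 3 lower, against 71.2% of 11200 genes (33.0% higher, 38.2% lower). Il6ra (0.91), Lif (1.81), Osmr (2.39) and Il11 (2.53) were higher in granulocytes in 6 of 6 tumours, and Osm (-0.77), Il10ra (-0.49) and Il10 (-2.27) were lower. Markers of other classes were higher in these granulocytes too: the median sum was 578 CPM against 140 CPM in macrophages for the tumour cell markers, and 907 against 180 CPM for the fibroblast markers. Their part in the calls was not tested. In the CD45 libraries Osmr and Il11 had medians under 1 CPM in both classes and were too low to test, and 5 of 7 members were called, 2 higher and 3 lower, against 77.5% of 10767 genes (35.2% higher, 42.4% lower). Il6ra was higher (1.78 ± 0.12, adjusted p = 4.88e-09), and Il6 (-2.31), Il6st (-1.33) and Il10 (-1.89) were lower. Lif was called at 0.58 (adjusted p = 0.0111), although its CPM was higher in granulocytes in 1 of 6 tumours. TMM shifted granulocytes by -0.83 in the CD45 libraries, where 45.3% of called genes were higher with TMM and 22.2% without, and by -0.27 in the Total libraries (46.3% and 34.4%). By library size the CD45 value of Lif was -0.21 (adjusted p = 0.298), and Osm and Il10ra were called as lower, at -0.76 and -0.64, where TMM gave 0.07 and 0.18 with no call. The calls of Il6ra, Il6, Il6st and Il10 held under both scalings.

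The pathway genes around these members also differed between granulocytes and macrophages. In the CD45 libraries 3 of 4 other ligands tested were higher in granulocytes and 1 lower, and 1 of 5 other receptor subunits was higher and 3 lower. Of 8 transducers 5 were higher and 1 lower, and of 10 feedback genes and targets 8 were higher, but by library size several turned to lower, among them Stat3 (-0.06), Bcl3 (-0.01), Junb (-0.15), Socs3 (-0.39) and the receptor subunit Il10rb (-0.01). Over all genes the median difference was -0.17. Cebpd, a transcription factor induced by interleukin-6, was higher by 3.20 ± 0.20 (adjusted p = 2.33e-09), and Lifr was lower by -2.59. Jak2 was higher by 2.12, Ebi3 by 1.92 and Il27, its partner in interleukin-27, by 1.91. In the Total libraries all 5 other ligands tested were higher, none of 4 other receptor subunits was higher and 2 were lower, 3 transducers were higher and 2 lower, and 7 of 10 feedback genes and targets were higher and 1 lower, against a median of -0.11 over all genes. The tumour cell and fibroblast markers that were higher in Total granulocytes stand beside these counts as well, and their part in them was not tested.

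Dendritic cells and T cells of the CD45 libraries were each set against macrophages. In dendritic cells 3 of 7 members tested were called, against 47.5% of all genes (22.3% higher, 25.2% lower), and each was lower: Osm (-1.58 ± 0.13, adjusted p = 1.95e-06), Il6ra (-0.45) and Il10ra (-0.21, adjusted p = 0.0448). The dendritic cell class also held the 6 macrophage markers, at 1925 to 8258 CPM against 9264 to 15970 CPM in macrophages. The part of these markers in the calls was not tested. The Il10ra call was lost on leaving out any tumour other than M (adjusted p = 0.0667 to 0.132). It was also lost without the tumour block (0.172), with DESeq2 (0.0532), with the strictest library's gene minimum in every library (0.0656) and by library size (0.108). Il6 at 0.40 was not called (adjusted p = 0.184). Il6st, not called at 0.48 (adjusted p = 0.109), was called as higher by library size (0.54, adjusted p = 0.0483). Transducers stood out in count, since 7 of 8 were higher in dendritic cells, led by Stat5a (3.25) and Jak2 (3.12). T cell markers stood higher in the dendritic cell class too, with a median sum of 207 CPM against 10.9 CPM in macrophages and 5058 CPM in T cells, and the median level of Stat5a was 445 CPM in T cells against 182 CPM in dendritic cells. Their part in these counts was not tested. Of 4 other ligands tested 1 was higher and 1 lower, of 5 other receptor subunits 1 was higher (Il27ra, 1.92) and 3 lower, and of 10 feedback genes and targets 3 were higher, among them Socs1 (1.68), and 4 lower. The median transducer stood at 0.93 and the median of all genes at -0.04.

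In T cells 6 of 7 members tested were called, 1 higher and 5 lower, against 78.5% of 11221 genes (38.8% higher, 39.8% lower). Il6 (-3.89 ± 0.26, adjusted p = 4.71e-07), Osm (-3.60), Il10ra (-1.40), Il10 (-0.85) and Il6ra (-0.77) were lower than in macrophages, and Il6st was higher (0.71, 6 of 6 tumours). TMM shifted T cells by 0.56, with 49.4% of called genes higher against 70.7% by library size, and by library size the calls of Il6ra (-0.20) and Il10 (-0.27) were lost. The calls of Il10 (adjusted p = 0.0829 to 0.162) and Il6st (0.0571 to 0.0643) were each lost without EM1, EM2 or the parental tumour, and that of Il10 also without M, or with doublets kept (0.0507). Of 5 other receptor subunits tested 1 was higher and 4 lower in T cells: Il27ra, the interleukin-27 receptor, stood at a median of 124 CPM against 1.33 CPM (5.84 ± 0.13, adjusted p = 1.56e-09), and Lifr was lower by -4.34. Of 8 transducers 7 were higher, among them Stat5a (4.13) and Stat5b (3.39), and none lower. Of 4 other ligands 1 was higher and 1 lower, and of 10 feedback genes and targets 3 were higher and 2 lower, with Cebpb, a transcription factor of myeloid cells, at -3.65. The median transducer stood at 1.82 and the median of all genes at -0.0036.

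Il6st was higher in Foxp3+ than in Cd44+ CD4 T cells. Cd44+ CD4 T cells stood at 181, 202, 271, 68.0, 30.1 and 153 CPM, below the Foxp3+ values given above in 6 of 6 tumours. The difference was 1.26 ± 0.17 (adjusted p = 9.02e-07). Cd44- CD4 T cells were not tested against Foxp3+ cells, and their Il6st ranges overlapped, with medians of 276 and 288 CPM. Il10ra was lower in Foxp3+ cells (-0.49 ± 0.16, adjusted p = 0.0226), from 94.7, 101, 66.2, 126, 146 and 84.1 CPM in Cd44+ cells to 64.7, 76.8, 51.5, 99.5, 64.0 and 68.9 CPM. These were 2 of 5 members tested, 1 in each direction, against 23.6% of 6139 genes (12.3% higher, 11.3% lower). The Il10ra call was lost without E (adjusted p = 0.0606) or M (0.133), with DESeq2 (0.213) and without the tumour block (0.105). Il10 did not differ by the test (0.15 ± 0.29, adjusted p = 0.781). Of the pathway genes, Ebi3 (1.67 ± 0.19, adjusted p = 3.10e-08), Bcl3, a co-activator downstream of STAT3 (1.01), and Il27ra (0.71) were higher in Foxp3+ cells, and Socs3 was lower (-0.82 ± 0.12, adjusted p = 4.95e-06). In counts, 1 of 2 other ligands tested was higher and 1 lower, both other receptor subunits tested were higher, 4 of 8 transducers were higher and 1 lower, and 3 of 8 feedback genes and targets were higher and 2 lower.

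Within CD8 T cells the same subunit was lower in the cytotoxic subtype. Lef1+ cells, named for a transcription factor of naive T cells, stood at 87.3, 101, 69.0, 65.0 and 49.4 CPM of Il6st in the 5 clone tumours, and Gzmb+ cells, named for granzyme B, at 37.2, 29.4, 44.2, 25.8 and 9.48 CPM. The difference was -1.32 ± 0.23 (adjusted p = 0.000567, lower in 5 of 5 tumours). The parental tumour had 8 Gzmb+ cells and was left out by the minimum of 20 cells. Osm was also called (-0.57, adjusted p = 0.0317), at 92.9, 40.3, 43.1, 179 and 32.9 CPM in Lef1+ cells and 65.6, 29.4, 37.9, 107 and 37.9 CPM in Gzmb+ cells. Without E or EM3 it did not pass the low-count filter, and it was lost without EM1 (adjusted p = 0.0627), without a low-count filter (0.0576), with DESeq2 (0.479) and without the tumour block (0.204). These were 2 of 3 members tested, both lower, against 16.1% of 6284 genes (6.91% higher, 9.17% lower). Of 9 feedback genes and targets tested 2 were higher and 6 lower, led by Socs3 (-1.62 ± 0.16, adjusted p = 2.42e-06) and Il4ra (-1.07). Of 8 transducers Stat3 was higher (0.93), 2 were lower, and no other ligand or receptor subunit tested was called.

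Between tumours, levels were set side by side as folds on CPM + 1, with a fold of 2 as the limit, and no test was possible. In tumour cells 4 of 8 members with at least 5 CPM passed it for M over E, 2 in each direction, against 23.9% of all genes (8.44% higher, 15.5% lower in M). Il11 (3.46-fold) and Il6ra (2.81-fold) were higher in M, and Osm (5.15-fold) and Il10ra (3.67-fold) were higher in E, where macrophage genes such as C1qa were also higher in this class. On CPM + 10 the Il10ra fold fell under the limit and the others passed. For EM3 over E, which share a barcode set, 3 of 8 passed, against 20.7% (4.77% higher, 15.9% lower in EM3): Il11 was 3.18-fold higher in EM3, and Osm (2.07-fold) and Il10ra (2.33-fold) were higher in E. On CPM + 10 in place of CPM + 1, the Osm and Il10ra folds fell under the limit. In fibroblasts 5 of 9 passed for M over E, against 21.6% of all genes (3.74% higher, 17.8% lower in M). Il11 (9.56-fold) and Lif (2.34-fold) were higher in M, and Il10 (45.1-fold), Osm (6.04-fold) and Il10ra (2.80-fold) were higher in E. The Il10 value rests on the 2 cells of E named above. Fibroblasts of E also had the highest macrophage markers (1664 CPM, lowest 212), T cell markers (802 CPM, lowest 90.7) and Ptprc, the gene of CD45 (117 CPM, lowest 7.43), and their part in these folds was not tested. Among fibroblasts with no Ptprc UMI the M over E difference was -2.25 for Osm and -2.09 for Il10ra on the log2 scale. The share of thinned cells with an Il10ra UMI gave 0.011, but only 0 to 4.08% of the thinned fibroblasts of a tumour had one. For EM3 over E 3 of 9 passed, against 20.7% (5.44% higher, 15.2% lower in EM3): Il11 was 8.90-fold and Lif 2.30-fold higher in EM3, and Il10 was 38.7-fold higher in E.

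In macrophages 3 of 9 members passed for M over E, against 11.7% of all genes (6.98% higher, 4.73% lower in M). Il6 (8.65-fold) and Il6st (2.36-fold) were higher in E, and Il10 was 2.79-fold higher in M. Their Il6 and Il10 UMIs lay in few cells. Without the 10 cells richest in the gene in each tumour, the Il10 difference was 2.82 on the log2 scale in place of 1.48, and that of Il6 -3.25 in place of -3.11. That cut was unequal: cells with at least 5 Il10 UMIs numbered 7 in E and 43 in M, and those with at least 5 Il6 UMIs 105 and 15. It therefore cannot show how firm either difference is. Without all cells of at least 5 Il6 UMIs, a cut on the compared gene itself, the Il6 levels were 25.4 CPM in E and 7.42 CPM in M. Total macrophages with at least 5 Il6 UMIs also carried mast cell genes: over the 6 tumours the protease gene Tpsab1 stood at 1975 CPM in them against 212 CPM in other macrophages, and Cpa3 at 129 against 12.6 CPM. Cytokine genes were higher in them too, with Il1a at 2967 against 385 CPM and Il1b at 11333 against 3226 CPM. In CD45 macrophages with at least 5 Il6 UMIs, Il1a stood at 3665 against 434 CPM, and Tpsab1 at only 59.2 against 1.48 CPM. The 4 mast cell markers summed to 6.93 CPM in macrophages of M, the lowest of the 6 tumours, and to at most 99.4 CPM, in the parental tumour. Tumour cell markers were lowest in M (51.9 CPM) and highest in E (215 CPM), as were T cell markers (11.4 and 72.0 CPM). Macrophage markers were lowest in E (8061 CPM) and granulocyte markers highest in M (1531 CPM), while fibroblast markers had neither extreme in E or M. The part of these markers in the Il6, Il6st and Il10 differences was not tested. For EM3 over E only Il10 passed (2.14-fold), against 5.37% (2.25% higher, 3.12% lower in EM3), but CD45 macrophages of the same tumours stood at 13.0 and 9.94 CPM. On CPM + 10 this Il10 fold fell under the limit. In granulocytes 2 of 9 passed for M over E, against 11.0% (4.96% higher, 6.01% lower in M): Osm was 2.17-fold higher in E and Il11 2.56-fold higher in M. This Il11 fold fell under the limit on CPM + 10. For EM3 over E 1 of 8, Il11 (2.76-fold), passed, against 8.93% (3.42% higher, 5.51% lower in EM3). In CD45 granulocytes of the same tumours Il11 stood at 0.297 CPM in E, 0.913 CPM in M and 0.233 CPM in EM3, on 1, 4 and 1 UMIs. Over all 6 tumours, the highest value exceeded the lowest by more than 2-fold for 6 of 8 members in tumour cells (41.4% of all genes), 6 of 9 in fibroblasts (59.5%), 6 of 9 in macrophages (18.9%) and 8 of 9 in granulocytes (56.1%). In tumour cells those 6 were Il6 (3.20-fold), Il6ra (3.96-fold), Lif (2.16-fold), Osm (12.3-fold), Il11 (5.76-fold) and Il10ra (5.46-fold). For Il6, 140 of 2855 tumour cells of EM1, the highest, and 3 of 782 of E, the lowest, had at least 5 UMIs. Without such cells EM1 stood at 21.9 CPM and E at 14.7 CPM. That cut is made on the compared gene itself, so it cannot show how widely the difference was spread over cells. Il6st and Osmr stayed within 2-fold there.

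Classes of the same name from the same tumour could be read in both libraries, and the members differed in how far the levels lay apart. For Osm, Il6ra and Il10ra they lay close in macrophages and granulocytes: in macrophages their median difference between Total and CD45 libraries lay between -0.09 and 0.04 on the log2 scale, and in granulocytes between -0.24 and -0.10. Granulocyte Osm and Il6ra were lower in the Total library in 6 of 6 tumours. In the dendritic cell class Osm was lower in the Total library in 5 of 6 tumours, by a median of -1.44. The 6 macrophage markers moved the same way there, summing to 206 to 1229 CPM in the Total libraries and 1925 to 8258 CPM in the CD45 libraries, and their part in the Osm difference was not tested. The class named B did not hold the same cells in both. Its 3 plasmacytoid dendritic cell markers summed to 908 to 4708 CPM (median 2345) in the Total libraries, beside a median of 2316 CPM for the 4 B cell markers, and to 0 to 8.14 CPM in the CD45 libraries, where Other Myeloid held them at 264 to 774 CPM. The CD4 and CD8 markers of that class also stood higher in the Total libraries, with medians of 228 and 248 CPM against 11.4 and 4.58 CPM. Beside those markers, Osm of the class was lower in the Total library in 5 of 6 tumours, by a median of -1.51, and Il6ra was higher in 6 of 6, by 0.61. Their part in either difference was not tested. Il10 differed by -0.14 in macrophages and 0.05 in granulocytes, higher in the Total library in 3 of 6 tumours in each. Lif, Osmr and Il11 were higher in the Total library in 6 of 6 tumours in both classes, with counting intervals that never overlapped. In macrophages the tumour cell markers summed to 51.9 to 215 CPM in the Total libraries and 6.06 to 43.5 CPM in the CD45 libraries, and the fibroblast markers to 64.8 to 283 CPM and 1.04 to 4.97 CPM. Granulocyte Lif was 97.2, 130.5, 134, 114, 108 and 383 CPM in the Total libraries and 17.2, 14.8, 11.97, 15.8, 12.1 and 21.0 CPM in the CD45 libraries. Granulocyte Il11 was 12.4 to 154 CPM against 0 to 0.913 CPM, and Osmr 15.6 to 63.0 CPM against 0 to 2.10 CPM. Il6 and Il6st differed in granulocytes in all 6 tumours (medians of 2.98 and 2.47 on the log2 scale) but little in macrophages (0.22 each). In granulocytes, too, markers of other classes moved the same way: the 5 tumour cell markers summed to 274 to 1016 CPM in granulocytes of the Total libraries and 5.25 to 26.7 CPM in the CD45 libraries, and the 6 fibroblast markers to 287 to 1124 CPM and 1.86 to 11.0 CPM. The parental tumour was highest for both lists in the Total granulocytes, as it was for Lif and Il11. What part of the levels of Lif, Il11 and Osmr in both classes, and of Il6 and Il6st in granulocytes, came from RNA of other cells was not tested.

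**Figure D5:**
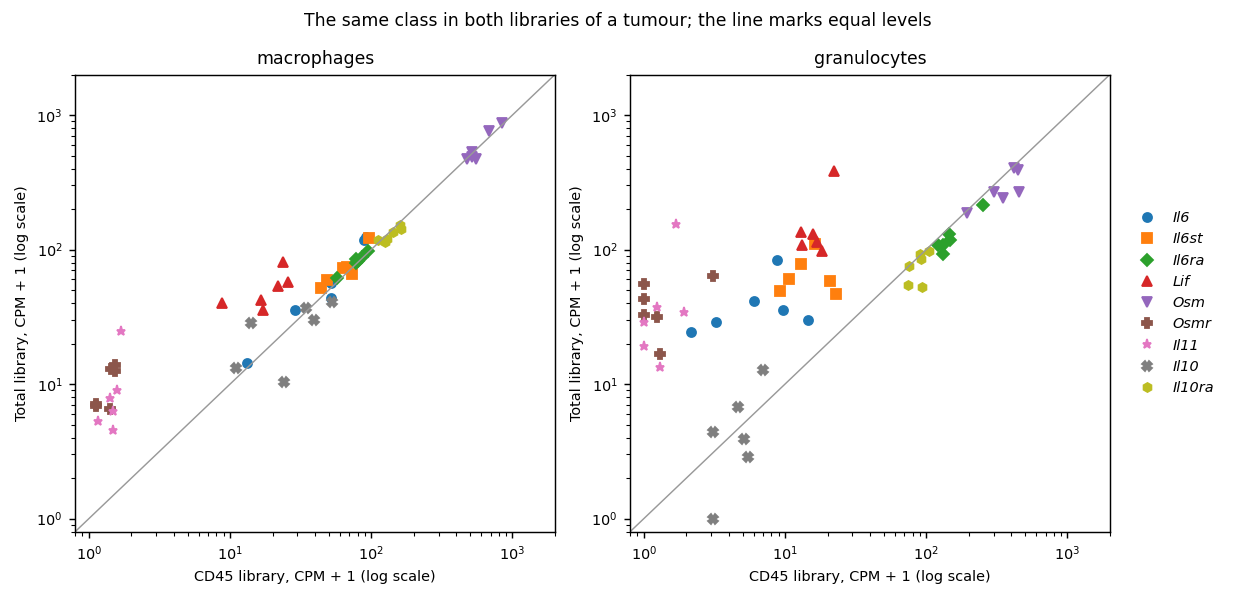
Level of each gene in macrophages (left) and granulocytes (right) of the CD45 library (x axis) and the Total library (y axis) of the same tumour, CPM + 1 on log scales, 1 point per tumour and gene, with a line at equal levels. Osm, Il6ra and Il10ra lie near the line, and Lif, Osmr and Il11 lie above it in all 6 tumours.

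Members were also found together in single cells. After thinning to 1000 UMIs, 28.6 to 53.8% of fibroblasts with an Il6 UMI also had a Lif UMI, against 13.0 to 27.1% of those without, higher in 6 of 6 tumours. In tumour cells 6.81 to 27.2% of cells with a Lif UMI had an Il11 UMI, against 4.15 to 15.7% of the others, higher in 6 of 6 tumours. Il6 in tumour cells with Lif showed 3.15 to 9.60% against 1.39 to 3.88%, also 6 of 6. In macrophages Il6 was found in 2.13 to 6.31% of cells with an Osm UMI and 1.27 to 4.75% of the others, higher in 5 of 6. Il10 was found in 0 to 5% of macrophages with an Il6 UMI and 0.536 to 2.36% of the others, higher in 5 of 6. In M it was found in 0% of the 29 macrophages with an Il6 UMI, against 2.11% of the others. These are counts of cells within 6 tumours and are given as a description.

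Across 51 sums of class and tumour in the Total libraries, the gene with the profile most like each member was found by Pearson's r of log2(CPM + 1) among 15210 genes. The sums share tumours and libraries, so the values are a description. Osmr was most like Ptk7 (0.97) and Cald1 (0.96), Il10ra like Fermt3 and Laptm5 (0.97 each), Lif like Col7a1 (0.93) and Lhfp (0.92), and Osm like Fcer1g (0.93) and Trf (0.92). Il6st was most like Sptbn1 (0.92) and Mprip (0.90), Il11 like Loxl3 (0.89) and Efemp2 (0.88), and Il6 like Gpx7 (0.87) and Prickle2 (0.85). Il6ra reached 0.79 with both Apbb1ip and Snx18, and Il10 only 0.65 with Gstm4 and 0.64 with Trem2. Osm and Lif are neighbours on mouse chromosome 11 in GRCm38, on the same strand and 16.5 kb apart (Osm at 4236420 to 4241026, Lif at 4257557 to 4272514), yet Osm was led by macrophages and Lif by fibroblasts and tumour cells.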

How the data were processed

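The study measured single-cell RNA in 12 libraries from 6 tumours, a Total and a CD45 library each. The authors deposited raw UMI counts per gene and cell with a table of cell classes; Cell Ranger and mm10 are named in the submitters' processing notes, and the labels name both a fixed-RNA kit and 3′ kits, so the capture chemistry is not settled and levels are not compared between genes. Mitochondrial percent and the same value as a fraction were computed by the authors per cell, per the file headers, and were used only to check that the tables belong together. The authors' filters on cells are not given in the sources used here.

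From the counts, doublets were scored by simulated neighbours within each library (ratio 2, expected 6%, 2000 variable genes, 30 components), and 2276 of 115612 cells were removed. Counts were summed by class and tumour (at least 20 cells per sum in tests). Contrasts between classes used edgeR 4.0.16's quasi-likelihood test in R 4.3.3 with TMM scaling, its low-count filter and the tumour as a block, since classes of 1 tumour share an animal and, within a contrast, a library. Adjusted p-values are Benjamini-Hochberg over all genes tested. DESeq2 1.42.0, no block, no filter, doublets kept, a minimum of 650 genes per cell and leaving out each tumour were alternatives, and scaling by library size was added after the data were seen. Ratios between tumours used CPM + 1 (10 as alternative) for members with at least 5 CPM in either group. Cells with at least 5 UMIs of a gene were examined apart. Intervals for counts are exact Poisson and cover counting error only. Analyses outside R used Python 3.11.15 with numpy 2.4.6 and scipy 1.17.1. On simulated counts the edgeR script recovered 30.4 to 61.4% of genes changed by 1 on the log2 scale and 93.9 to 100% of those changed by 2. Of the genes called there, 1.41 to 6.52% were false. The simulation changed few genes, evenly in both directions, with a fixed dispersion and no tumour effect. It therefore cannot show how the test behaves where most genes differ or scaling shifts whole classes.

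All 9 members are named throughout. Other pathway genes come from fixed lists of 7 further ligands, 6 receptor subunits, 8 transducers and 10 feedback genes and targets, with those of large difference named (some are not reported here), and the 2 most alike genes are named per member. The members and lists were chosen with earlier results of these data known. Both planned contrasts inside macrophages and inside dendritic cells were left out because the deposited subtypes do not divide those classes.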

Additional observations from a re-analysis of the deposited data

Results flagged for a closer look

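A level was marked for a closer look where 1 of 6 tumours lay far from the other 5 (Dixon's test at 95%). Chance marks about 1 in 20 groups, and 59 groups were examined, so a few of the 13 marked values would be marked by chance. Values are CPM, each with the nearest other tumour.

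The parental tumour accounted for 5 of them. Its tumour cells stood at 1192 for Lif against 726. Its Total granulocytes stood at 383 for Lif against 134, at 154 for Il11 against 36.1 and at 82.8 for Il6 against 40.2, and its Total macrophages at 24.0 for Il11 against 7.96. The same granulocytes held the highest summed tumour cell markers (1016) and fibroblast markers (1124) of the 6 tumours. In the CD45 libraries granulocytes of the parental tumour stood at 21.0 for Lif and 7.72 for Il6. The part of RNA from other cells was not tested.

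M stood apart for Il6ra in tumour cells and, in both of its libraries, in granulocytes. Tumour cells stood at 129 against 64.4, Total granulocytes at 214 against 129, and CD45 granulocytes at 250.4 against 146. Lif in CD45 T cells of M stood at 44.6 against 19.6.

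E stood apart for Il10 in fibroblasts, at 146 against 8.80, where 2 cells held 92 of 102 UMIs, and for Il6st in Total macrophages, at 120.5 against 73.1. In the CD45 libraries macrophages of E also had the highest Il6st, 95.3 against 72.6. EM3 stood apart for Lif in CD45 dendritic cells, at 45.9 against 17.2. EM1 stood apart for Il6 in tumour cells, at 92.2 against 44.2, where 140 of 2855 cells held 1932 of 2487 UMIs. Without the cells of at least 5 Il6 UMIs, a cut on the compared gene itself, EM1 stood at 21.9 CPM and the other 5 tumours at 14.2 to 16.7 CPM. Over the 6 tumours such cells also had more of the extracellular matrix genes Bgn (157 against 21.5 CPM) and Eln (98.4 against 5.48 CPM) than the other tumour cells.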

How the results depend on the processing

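Without the tumour block (no replicate block) or with DESeq2, 1 member in place of 2 was called between Foxp3+ and Cd44+ CD4 T cells, and 1 in place of 2 between Gzmb+ and Lef1+ CD8 T cells; in the other 6 contrasts the block changed 1 call, that of Il10ra in dendritic cells (adjusted p = 0.172 in edgeR). Leaving out 1 tumour at a time gave 1 to 2 calls for the CD4 contrast and 1 to 3 for the CD8 contrast, which had 1 without E, EM1 or EM3 and 3 without EM2 or M; the CD4 contrast had 1 without E or M. In the others it gave 7 to 8 for fibroblasts, 8 to 8 for macrophages against tumour cells, 7 to 8 and 5 to 5 for granulocytes (Total, CD45), 2 to 3 for dendritic cells and 4 to 6 for T cells. For single members 222 leave-one-out values kept their call and 19 lost it. Scaling by library size gave 6, 8, 7, 6, 3, 4, 2 and 2 calls in the order of the report, against 8, 8, 7, 5, 3, 6, 2 and 2, with Il10ra exchanged for Il6st in dendritic cells, and Lif between CD45 granulocytes and macrophages reversed to -0.21. Between tumours, the Il10ra difference in fibroblasts of M over E was lost as a share of thinned cells, at 0.011. That share was 0 to 4.08% over the tumours, with 123 thinned fibroblasts in E and 244 in M, so it rests on few cells. The Il10 ratio of these fibroblasts came to 0 without the 10 cells richest in Il10, but that value was fixed in advance. Fibroblasts of M held 7 Il10 UMIs, and at most 6.67% of the 135 of E had one, so no Il10 UMI was left. Apart from this Il10 value, the cause of these changes was not tested. With CPM + 10 in place of CPM + 1, 9 of the M over E folds that passed stayed within the range set by their counting intervals and 5 moved out of it. The 2 planned contrasts inside macrophages and dendritic cells were not run.

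Some values rest on few UMIs: those of Osmr and Il11 in CD45 leukocytes and of Il10 in most T cell subtypes. A single tumour per clone leaves differences between clones without an error.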
